A study of Homo sapiens with 12 samples.

Results

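The genes described here encode the protein subunits of the mitochondrial respiratory chain that are written in the cell nucleus. The set holds 54 listed genes of 5 protein complexes: 24 of complex I, 4 of complex II, 7 of complex III, 13 of complex IV and 6 of complex V. Each was matched by its symbol or an older synonym and read from the probe set with 1 gene symbol that had the highest mean over the arrays. Of the 54 genes, 50 were represented, among 19775 genes in all: 23 of complex I, 3 of complex II, 5 of complex III, all 13 of complex IV and all 6 of complex V. NDUFS8 and UQCRH had no probe set specific to 1 symbol, and SDHB and UQCRFS1 were not analysed here.

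The study used 12 arrays of the Affymetrix type HG-U133 Plus 2.0 for RNA of NCI-H1299, an established human line of non-small cell lung cancer, with 3 arrays in each of 4 groups. Spheroid xenografts were tumours grown from spheroid cells, and parental xenografts were tumours grown from parental cells. Spheroid culture held cells kept in a stem cell medium, first for 7 to 10 days as a monolayer culture and then, as floating cells, in flasks with a surface of very low attachment. Parental culture held cells in medium with serum. All 4 groups came from the one line, so the medium, the floating growth and the selection of floating cells differ together between spheroid and parental cells. The labels call the replicates biological but name neither the host animal nor the animal of each tumour. The p-values therefore rest on the spread between these samples alone, which may be partly technical.

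The respiratory chain sits in the inner mitochondrial membrane. Complex I takes electrons from NADH and complex II takes them from succinate, and both pass them to coenzyme Q. Complex III hands them on to cytochrome c, complex IV delivers them to oxygen, and complex V uses the proton gradient built on the way to make ATP. Most subunits are encoded in the nucleus and imported, while a core of them is encoded in mitochondrial DNA, so the complexes need both genomes. Complex IV also has subunits with alternative forms that differ between tissues or with oxygen supply.

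On the deposited values, the respiratory chain genes differed little between the groups, and the exceptions were a few single subunits. COX6B1, a subunit that faces the intermembrane space and bridges the monomers of complex IV, was lower in spheroid culture and in parental xenografts than in parental culture. NDUFA1, a small accessory subunit of the membrane arm of complex I, was lower in parental xenografts than in parental culture. That call held in only 8 of 24 alternative analyses. No other represented gene of the set passed the test in any of the 5 comparisons. The called share was 2% between the cultures and 4% between parental xenografts and parental culture, near the 2.46% and 3.47% of all genes. In the latter, 31 of 50 differences lay below zero as deposited, 32 with median centring, 45 with quantile normalisation and 46 with cyclic loess.

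The promoters of these genes are shown because both genes fell and because the upstream regions of many respiratory genes are known to hold sites of the factors NRF1 and GABP (an ETS factor). The sequences are RefSeq's, on GRCh38.p14, and run 5′ to 3′ on the gene's strand over the 250 bases before the annotated start. Capitals mark matches to the letters searched. COX6B1 lies on the plus strand at chr19:35648073-35648322, NDUFA1 on the plus strand at chrX:119871582-119871831, and SDHA, the member with the largest positive difference between spheroid and parental culture, on the plus strand at chr5:218070-218319.
COX6B1: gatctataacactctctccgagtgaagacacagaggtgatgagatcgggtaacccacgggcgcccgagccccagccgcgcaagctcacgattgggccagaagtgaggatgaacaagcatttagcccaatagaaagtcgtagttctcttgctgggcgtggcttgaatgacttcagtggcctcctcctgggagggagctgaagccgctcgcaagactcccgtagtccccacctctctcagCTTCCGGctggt
NDUFA1: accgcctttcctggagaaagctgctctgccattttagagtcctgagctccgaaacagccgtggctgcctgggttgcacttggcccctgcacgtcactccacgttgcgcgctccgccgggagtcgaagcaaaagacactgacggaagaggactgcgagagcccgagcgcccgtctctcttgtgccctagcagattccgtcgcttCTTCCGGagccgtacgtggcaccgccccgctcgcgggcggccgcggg
SDHA: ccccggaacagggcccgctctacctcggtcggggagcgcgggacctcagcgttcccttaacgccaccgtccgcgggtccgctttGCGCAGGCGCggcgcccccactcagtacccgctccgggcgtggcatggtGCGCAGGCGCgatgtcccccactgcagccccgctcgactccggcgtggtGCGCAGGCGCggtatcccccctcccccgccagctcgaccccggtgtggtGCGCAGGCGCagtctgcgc

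COX6B1 and NDUFA1 each held 1 match to the ETS letters CCGGAAG, on the opposite strand, and none to the NRF1 letters, which are GCGCA, a base of any kind and GCGC. SDHA held 4 matches to the NRF1 letters, and its copies of them make up the capitals in its window. Over the set, windows were given for 41 represented genes, 50 windows in all because some genes have several starts. The NRF1 letters lay in 7 of the 50 windows, 14.0%, against 5.07% of all 35116 windows of this length. The ETS letters lay in 11 of 50, 22.0%, against 8.51% of all windows. The letters AAGATGGC of the factor YY1 lay in 0 of 50, against 1.36% of all windows. Both strands were searched, and a match is a description of letters in this window and not a bound site. Whether matches go with the direction of a difference was not tested.

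The levels are log2 values of the probe sets, so a difference of 1 is a 2-fold change. For 48 of the 50 genes the mean signal over the arrays lay above the upper quartile of all represented genes. The exceptions were COX4I2, at percentile 50.6, and COX7A1, at percentile 29.3. Signals of different probe sets are not amounts of RNA on a common scale, so these percentiles only place the probe sets on the array. In total 105 probe sets read the 50 genes, and 21 of the genes had just 1.

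The replicates of parental culture were further apart than those of any other group. The median SD of the 50 genes over 3 arrays was 0.0865 in spheroid xenografts, 0.209 in parental xenografts, 0.177 in spheroid culture and 0.414 in parental culture. Over all genes it was 0.156, 0.199, 0.186 and 0.316 in the same groups. Parental culture replicate 1 had the lowest value of all 12 arrays for 27 of the 50 genes. Replicate 2 of that group had the highest value for 20 of them, and replicate 3 for another 13. After each gene's mean over the arrays was taken off, the median of the 50 genes was -0.42 on parental culture replicate 1, 0.31 on replicate 2 and 0.21 on replicate 3. On the other 9 arrays it lay between -0.13 and 0.13.

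These arrays also stood apart in readings that do not involve the respiratory chain. The upper quartile of all probe sets was 7.56 on parental culture replicate 1, the lowest of the arrays, and 8.07 on replicate 2, the highest. The 5′ control probe set of 18S rRNA gave 6.96 for replicate 1 of parental culture and 10.5 for its replicate 2, while the remaining arrays gave 12.21 to 13.34. The gap between 3′ and 5′ GAPDH signals was 0.49 on parental culture replicate 1 and 0.02 to 0.13 on the other arrays. The same gap for actin was widest on that array (0.78), then on spheroid culture replicate 1 (0.77) and spheroid xenograft replicate 3 (0.64). The part of these readings in the values below was not tested. The called genes are given with and without parental culture replicates 1 and 2.

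**Figure D1:**
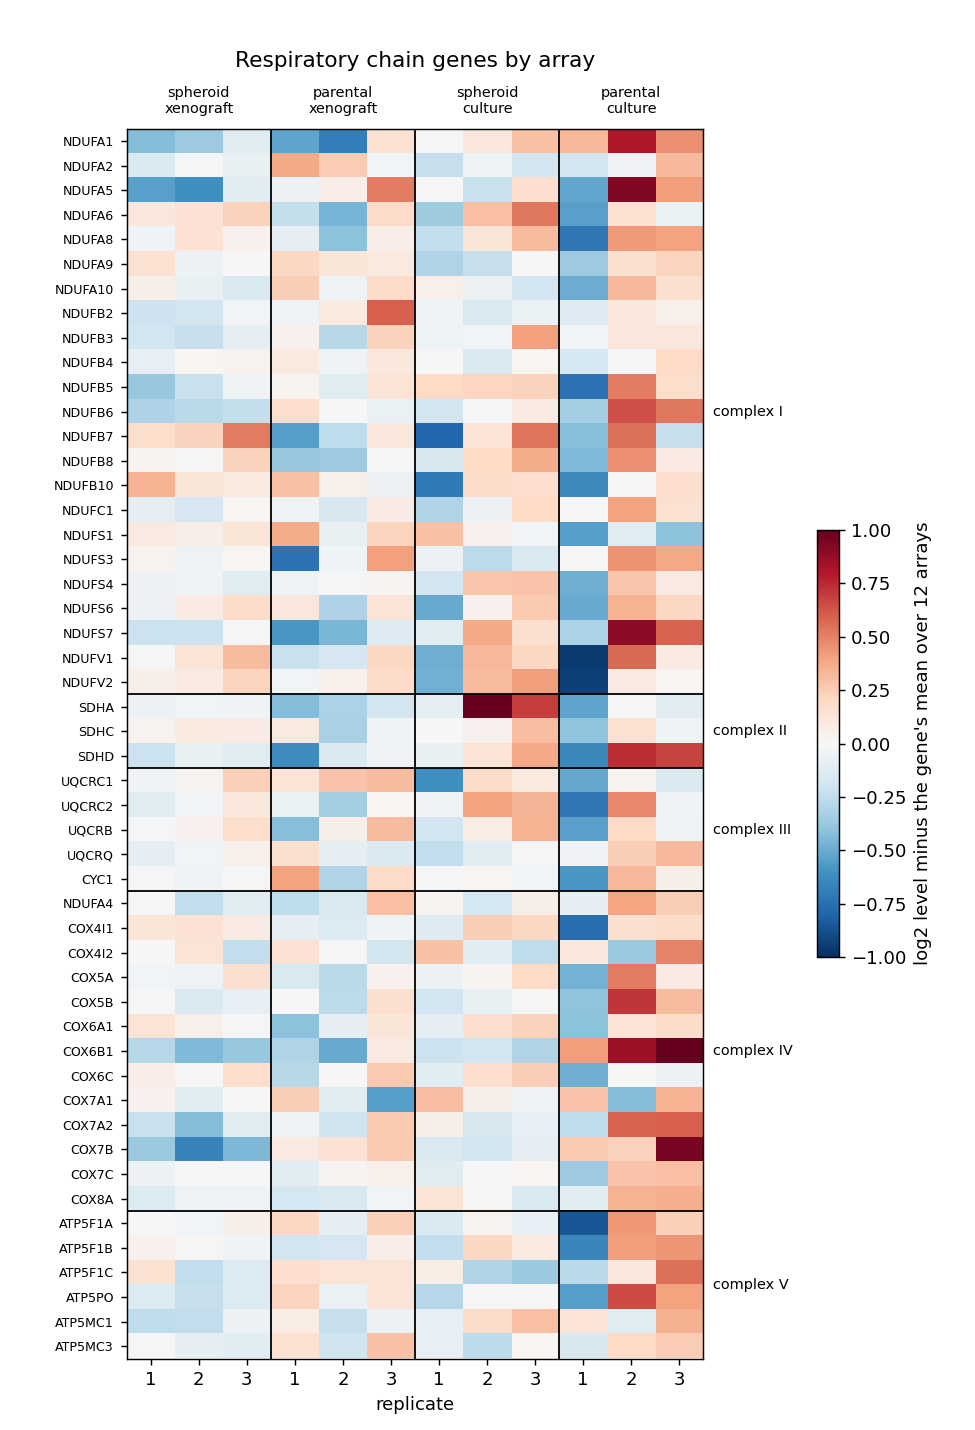
Log2 level minus the gene's mean over the 12 arrays, for the 50 represented genes (rows, by complex) on each array (columns, by group and replicate); colours saturate at a difference of 1 in either direction. Parental culture replicate 1 is low for most rows and replicates 2 and 3 are high, while COX6B1 is high on all 3 parental culture arrays.

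**Figure D2:**
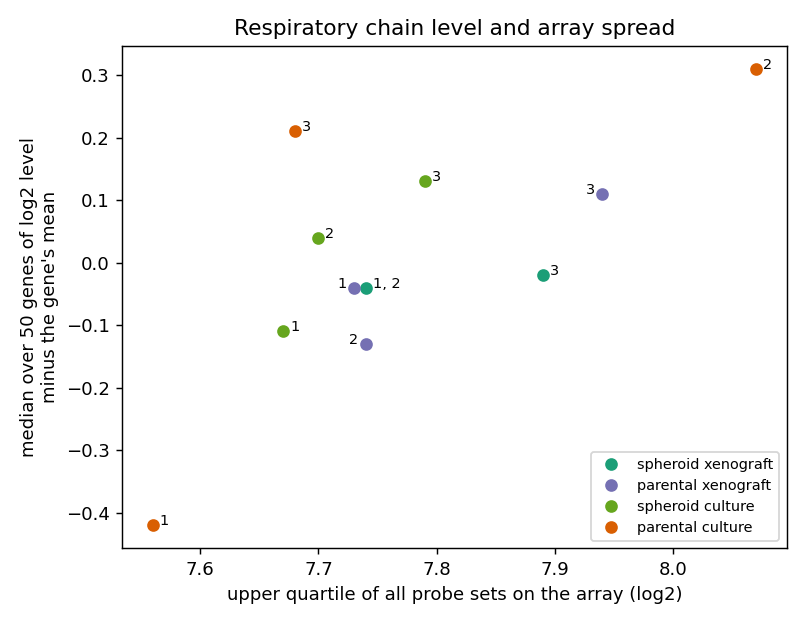
Median of the 50 genes after each gene's mean was taken off (y axis, log2) against the upper quartile of all probe sets of the same array (x axis, log2), 1 point for each of the 12 arrays, coloured by group and numbered by replicate. Parental culture replicate 1 lies lowest on both axes, at 7.56 and -0.42, and replicate 2 highest on both, at 8.07 and 0.31.

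The first comparison set spheroid culture against parental culture. COX6B1 fell and no other respiratory chain gene passed the test: 0 rose and 1 fell of 50, by limma with Benjamini-Hochberg adjustment over all genes at 0.05. Of all 19775 genes 2.46% were called, 0.885% higher and 1.58% lower, so 1 of 50 is close to that background. The differences ran from -1.08 to 0.78, with a median of -0.05, against 0.07 over all genes. That median had no settled direction: it was -0.30 without parental culture replicate 1, 0.07 without replicate 2 of that group, 0.06 without its replicate 3 and 0.02 without spheroid culture replicate 1. On the deposited values 28 of the 50 genes were below zero, against 36 with cyclic loess or a further quantile normalisation and 35 with median centring. At an unadjusted p under 0.05 there were 4 of 50, against 2767 of all 19775 genes, which is a larger share. For 47 of the 50 genes the 95% interval of the difference lay wholly within 1 log2 unit of zero, as it did for 82% of all genes. These intervals take 1 spread per gene for all 4 groups. They may be too narrow here, since the replicates of parental culture were the furthest apart.

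COX6B1 had log2 levels of 11.82, 11.84 and 11.73 in spheroid culture, against 12.45, 12.89 and 13.28 in parental culture. All 3 parental arrays were higher than all 3 spheroid arrays, including replicate 1, on which most members of the set were lowest. The difference was -1.08 (SE 0.21, n = 3 arrays a group, limma adjusted p = 0.0193), which is 2.11-fold lower. Without parental culture replicates 1 and 2 it was -1.49 (limma adjusted p = 0.0139). It lost the call without spheroid culture replicate 2 (limma adjusted p = 0.0894), without spheroid culture replicate 3 (limma adjusted p = 0.0776), without parental culture replicate 3 (limma adjusted p = 0.0578) and in a fit to only the 6 arrays compared (limma adjusted p = 0.128). In bulk RNA, fewer cells of a type and less RNA per cell cannot be told apart. COX6B1 has just 1 probe set here.

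Among the core subunits of complex I, which carry the NADH site and the chain of iron-sulphur clusters, no gene passed the test. NDUFS1, the large iron-sulphur subunit, had log2 levels of 10.54, 10.29 and 10.22 in spheroid culture, against 9.70, 10.13 and 9.84 in parental culture. Its groups did not overlap, and the difference was 0.46 (SE 0.16, limma adjusted p = 0.188). The NADH-binding flavoprotein subunit NDUFV1 differed by 0.12 (SE 0.33) and its partner NDUFV2 by 0.36 (SE 0.28). NDUFS3, another core subunit, differed by -0.44 (SE 0.24), again with no overlap between the groups. Such separation was no more frequent in the set than elsewhere: 5 of 50 genes, 10%, against 13.8% of all genes. NDUFS7, which holds the last cluster before coenzyme Q, differed by -0.25 (SE 0.27).

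The accessory subunits of complex I lay between -0.41 for NDUFA1 and 0.31 for NDUFA6. The 23 represented genes of this complex had a median difference of -0.04, with 10 above and 13 below zero. With each of the 3 other scalings it was 7 above and 16 below, with medians from -0.15 to -0.10. All 23 had a 95% interval within 1 log2 unit of zero, with the same limit on these intervals. NDUFV1, for one, had an SD of 0.44 in spheroid culture and 0.78 in parental culture.

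Complex II has a catalytic flavoprotein, SDHA, and the membrane anchors SDHC and SDHD. SDHA had log2 levels of 10.68, 11.88 and 11.47 in spheroid culture, against 10.25, 10.76 and 10.67 in parental culture. Spheroid replicates 2 and 3 were higher than every parental array, while replicate 1 lay within the parental range. The difference was 0.78 (SE 0.25, limma adjusted p = 0.148), and it passed the test without spheroid culture replicate 1, at 1.12 (limma adjusted p = 0.012). SDHA was read by 1 probe set of the type _x_at, whose probes can also match similar transcripts, and near-identical copies of the gene exist, so its level is uncertain. SDHC differed by 0.21 (SE 0.17) and SDHD by -0.11 (SE 0.31).

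Complexes III and V held no called gene in culture. In complex III the differences ran from -0.30 for UQCRQ, a small subunit, to 0.32 for the core subunit UQCRC2. UQCRC1, the other core subunit, had log2 levels of 10.49, 11.29 and 11.20 in spheroid culture, against 10.59, 11.14 and 10.96 in parental culture. Its groups overlapped, with a difference of 0.09 (SE 0.21). In complex V the catalytic subunits ATP5F1A and ATP5F1B differed by 0.00 (SE 0.26) and -0.05 (SE 0.25). The central stalk subunit ATP5F1C differed by -0.33 (SE 0.20) and ATP5PO, which ties the catalytic head to the peripheral stalk, by -0.26 (SE 0.25). ATP5MC1, which encodes the ring-forming subunit c, had 10.85, 11.12 and 11.23 in spheroid culture and 11.07, 10.81 and 11.29 in parental culture, which overlap (0.01, SE 0.16).

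Complex IV held the gene that fell and was otherwise without a call. Its 13 genes had a median difference of -0.11, with 5 above and 8 below zero. It was 2 above and 11 below with quantile normalisation (median -0.29) and cyclic loess (median -0.27), and 3 above and 10 below with median centring (median -0.17). COX7B, an accessory subunit needed for assembly of the complex and picked out here after its values were seen, had 11.97, 11.93 and 12.03 in spheroid culture, against 12.38, 12.35 and 13.07 in parental culture. The groups did not overlap, and the difference was -0.62 (SE 0.19, limma adjusted p = 0.115). The remaining differences ran from -0.38 for COX7A2 to 0.28 for COX6C.

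Subunits with alternative forms were of interest because COX4I2 is known as the form of lung and of low oxygen and COX7A1 as that of heart and skeletal muscle. COX4I1, the general form, had 13.16, 13.53 and 13.49 in spheroid culture and 12.53, 13.45 and 13.47 in parental culture. COX4I2 had 7.30, 6.90 and 6.75 in spheroid culture and 7.12, 6.63 and 7.5 in parental culture. Neither form separated the groups: the differences were 0.24 (SE 0.22) for COX4I1 and -0.10 (SE 0.22) for COX4I2.

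COX7A1 had 5.96, 5.71 and 5.60 in spheroid culture and 5.94, 5.22 and 6 in parental culture, a difference of 0.04 (SE 0.24). COX7A2, its general counterpart, had 12.65, 12.43 and 12.51 in spheroid culture and 12.34, 13.18 and 13.19 in parental culture, a difference of -0.38 (SE 0.22). Both overlapped between the groups.

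**Figure D3:**
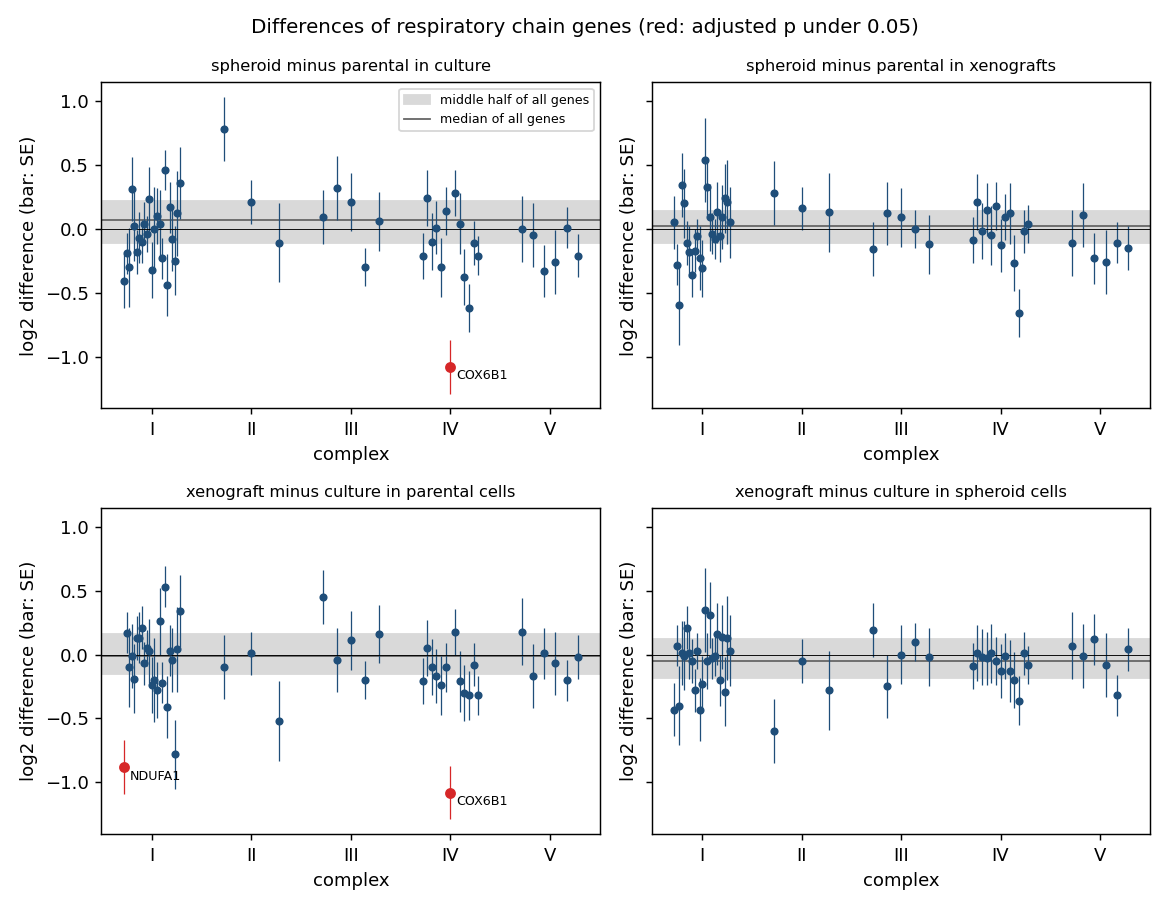
Log2 difference of each of the 50 genes (points) with its SE (bars), by complex, in the 4 comparisons of groups; the grey band runs from the lower to the upper quartile of all genes and the grey line their median. Red points passed limma's test at an adjusted p under 0.05: COX6B1 in culture, and COX6B1 and NDUFA1 between parental xenografts and parental culture.

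The second comparison asked whether tumours from spheroid cells differ from tumours from parental cells. By limma at an adjusted p under 0.05, 0 of the 50 genes rose and 0 fell, and 0.233% of all genes were called, 0.0506% higher and 0.182% lower. At an unadjusted p under 0.05 there was 1 of 50, against 1452 of all 19775 genes, again a larger share. The differences ran from -0.66 to 0.54, with a median of -0.02 against 0.02 over all genes. For 47 of the 50 the 95% interval lay within 1 log2 unit of zero, against 87.1% of all genes.

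COX6B1 had log2 levels of 11.75, 11.59 and 11.65 in spheroid xenografts, against 11.73, 11.53 and 12.12 in parental xenografts. The groups overlapped. NDUFA1 had 10.69, 10.76 and 11 in spheroid xenografts, against 10.59, 10.44 and 11.27 in parental xenografts, which also overlap.

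COX7B had 11.75, 11.45 and 11.67 in spheroid xenografts, against 12.21, 12.27 and 12.38 in parental xenografts. The 2 sets of 3 arrays did not overlap, and the difference of -0.66 (SE 0.19, limma adjusted p = 0.24) was close in size to that in culture (-0.62), which comes from other arrays. Neither passed the test over all genes. The difference between the 2 comparisons was -0.04 (SE 0.26).

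Groups that did not overlap were no more frequent among the respiratory chain genes than among all genes in these tumours. There were 7 of 50, 14%, against 16.5% of all genes. Besides COX7B, the lower ones in spheroid xenografts were NDUFA5 (-0.60, SE 0.31), NDUFB6 (-0.31, SE 0.22) and ATP5PO (-0.26, SE 0.25). The higher ones were NDUFB7 (0.54, SE 0.33), SDHA (0.28, SE 0.25) and COX4I1 (0.21, SE 0.22).

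In these tumours SDHA had 10.72, 10.75 and 10.74 in spheroid xenografts and 10.34, 10.46 and 10.59 in parental xenografts. UQCRC1 had 11.06, 11.14 and 11.34 in spheroid xenografts and 11.23, 11.39 and 11.42 in parental xenografts, which overlap. ATP5MC1 had 10.68, 10.69 and 10.87 in spheroid xenografts and 11.01, 10.70 and 10.87 in parental xenografts, which overlap as well.

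Of the isoform pairs, COX4I1 had 13.41, 13.43 and 13.37 in spheroid xenografts, against 13.20, 13.15 and 13.25 in parental xenografts. COX4I2 had 7.00, 7.14 and 6.76 in spheroid xenografts, against 7.15, 6.99 and 6.82 in parental xenografts. COX4I1 separated the groups by less than its SE and COX4I2 did not separate them. COX7A1 had 5.70, 5.54 and 5.65 in spheroid xenografts and 5.90, 5.53 and 5.10 in parental xenografts. COX7A2 had 12.37, 12.16 and 12.47 in spheroid xenografts and 12.56, 12.39 and 12.85 in parental xenografts. Both overlapped.

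The third comparison asked how parental cells differ when grown as a tumour and when grown in culture. COX6B1 and NDUFA1 fell in parental xenografts. By limma at an adjusted p under 0.05, 0 of the 50 genes rose and 2 fell, 4%, beside 3.47% of all genes called, 2% higher and 1.48% lower. At an unadjusted p under 0.05 there were 4 of 50, against 2823 of all 19775 genes, which is a larger share. The differences ran from -1.08 to 0.53, with a median of -0.08 against -0.01 over all genes. The median of the 50 was -0.29 without parental culture replicate 1, and turned to 0.04 without its replicate 2 and to 0.02 without its replicate 3. This comparison and the one in culture share the parental culture arrays.

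The COX6B1 levels of parental xenografts (11.73, 11.53 and 12.12) were all lower than those of parental culture (12.45, 12.89 and 13.28). The difference was -1.08 (SE 0.21, limma adjusted p = 0.0163), which is 2.11-fold lower. It lost the call without parental xenograft replicate 1 (limma adjusted p = 0.0527), without parental xenograft replicate 2 (limma adjusted p = 0.0759), without parental culture replicate 3 (limma adjusted p = 0.0598) and in a fit to only the arrays compared (limma adjusted p = 0.165). Without parental culture replicates 1 and 2 it was -1.49 (limma adjusted p = 0.00908). The spread between replicates was an SD of 0.30 in parental xenografts and 0.42 in parental culture (n = 3 each).

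The NDUFA1 levels of parental xenografts were 10.59, 10.44 and 11.27, and those of parental culture were 11.45, 11.92 and 11.58. All tumour arrays were lower than all culture arrays, with parental xenograft replicate 3 nearest to the culture values. The difference was -0.88 (SE 0.21, limma adjusted p = 0.0458), which is 1.84-fold lower. The call held in 8 of 24 alternatives and its adjusted p ran from 0.00209 to 0.241, so it lies at the edge of the threshold. Without parental xenograft replicate 1 the difference was -0.79 and without replicate 2 it was -0.72. Without parental culture replicates 1 and 2 it was -0.81 (limma adjusted p = 0.189).

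In spheroid culture NDUFA1 had 11.10, 11.23 and 11.41, which lie below all 3 parental culture arrays and above the arrays of spheroid xenografts. The order of its group means, 10.82 ± 0.16 in spheroid xenografts, 10.77 ± 0.44 in parental xenografts, 11.24 ± 0.15 in spheroid culture and 11.65 ± 0.25 in parental culture (SD, n = 3), put both kinds of tumour below both kinds of culture. Only the parental pair passed the test. The change of spheroid cells, -0.43 (SE 0.21, limma adjusted p = 0.733), and that of parental cells were not called different.

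Other members of complex I that moved in parental xenografts missed the threshold. NDUFS1 was higher in all 3 tumours, at 10.62, 10.18 and 10.47, than in parental culture, with a difference of 0.53 (SE 0.16, limma adjusted p = 0.109). Groups without overlap were found for 4 of the 50 genes in this comparison, 8%, against 13.6% of all genes. NDUFS7 had 8.65, 8.77 and 9.10 in parental xenografts, against 8.91, 10.13 and 9.82 in parental culture, where replicate 1 overlaps the tumours. Its difference was -0.78 (SE 0.27, limma adjusted p = 0.162), and without parental culture replicate 1 it was -1.14 (limma adjusted p = 0.00927). The 23 genes of the complex had a median of -0.01, with 11 above and 12 below zero. With median centring the split was the same (median -0.02). With quantile normalisation it was 4 above and 19 below (median -0.20), and with cyclic loess 3 above and 20 below (median -0.23).

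In complex II, SDHD differed by -0.52 (SE 0.31) in parental xenografts, and by -0.97 (limma adjusted p = 0.0207) without parental culture replicate 1. SDHA and SDHC differed by -0.10 (SE 0.25) and 0.01 (SE 0.17). In complex III, UQCRC1 was higher in all 3 tumours than in parental culture (0.45, SE 0.21, limma adjusted p = 0.379), and the complex had a median of 0.11, which turned to -0.07 with quantile normalisation and to -0.14 with cyclic loess. In complex V, ATP5F1A differed by 0.18 (SE 0.26) and ATP5MC1 by -0.20 (SE 0.16). The median of complex V was -0.05, against -0.22 with quantile normalisation and -0.28 with cyclic loess. With median centring the medians of complexes III and V stayed at 0.11 and -0.05.

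Complex IV leaned lower in parental xenografts: 11 of its 13 genes were below zero, with a median of -0.21. Of these COX6B1 alone was called. The split depended on how the arrays were scaled. Median centring left it near that of the deposited values, with 11 of 13 complex IV genes (median -0.22) and 32 of all 50 below zero. With cyclic loess or a further quantile normalisation, 13 of 13 complex IV genes were below zero (median -0.39 in each) and 46 or 45 of all 50 genes were, against 31 of 50 on the deposited values. The median of all genes was -0.03 with cyclic loess and -0.04 with the quantile step, against -0.01 on the deposited values. Quantile normalisation called 4 of the 50 and cyclic loess 6, all lower. Those of cyclic loess were NDUFA1, NDUFB8, NDUFS7, COX5A, COX5B and COX6B1.

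Probe sets of the same gene did not always give the same difference in this comparison. For COX7C the probe set used gave -0.08 (SE 0.17), while another gave -0.68 (SE 0.14). For ATP5F1C the probe set used gave 0.01 (SE 0.20), while another gave 0.80 (SE 0.18). Both genes were called when probe sets of the types _x_at and _s_at were left out (limma adjusted p = 0.0311 for COX7C and 0.0451 for ATP5F1C).

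**Figure D4:**
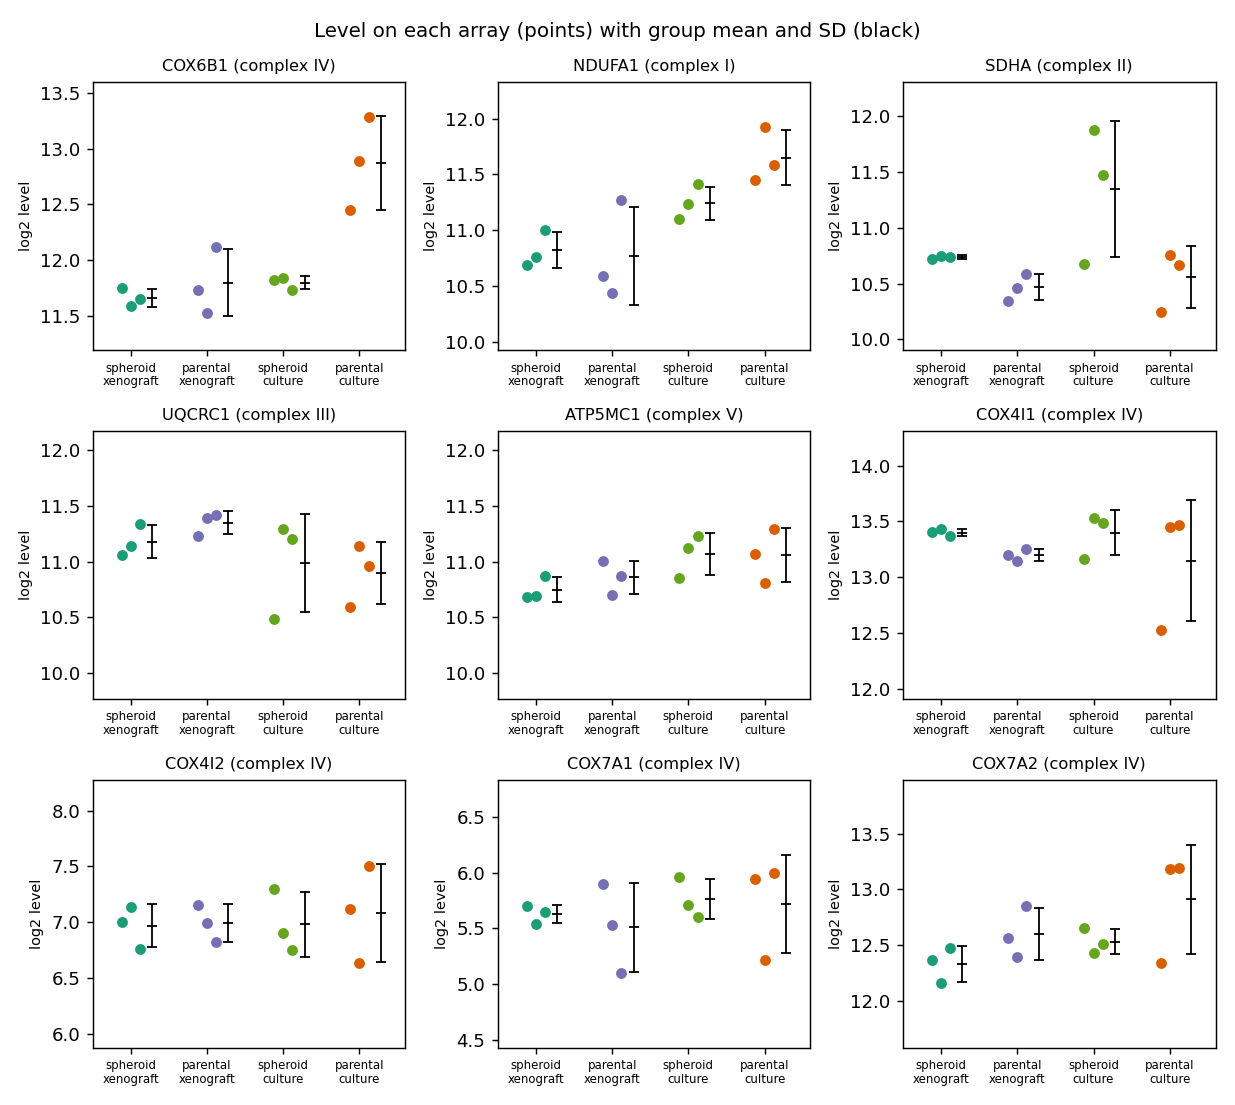
Log2 level on each array (points, 3 a group) with the group mean and SD (black) for 9 genes, each panel spanning the same number of log2 units. COX6B1 is higher on all 3 parental culture arrays, 12.45 to 13.28, than on any other array, and the mean of NDUFA1 is highest in parental culture and lower in both kinds of tumour.

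The fourth comparison asked how spheroid cells differ as a tumour and in culture. By limma at an adjusted p under 0.05, 0 of the 50 genes rose and 0 fell, and 0.0202% of all genes, 4 genes, were called. At an unadjusted p under 0.05 there was 1 of 50, SDHA, against 1461 of all 19775 genes, a larger share. The differences ran from -0.60 to 0.35, with a median of -0.02 against -0.05 over all genes, and the median of the 50 genes turned positive with median centring (0.02). Of the 50 genes 31 were below zero, against 40 with quantile normalisation, 22 with median centring and 42 with cyclic loess. For 47 of the 50 the 95% interval lay within 1 log2 unit of zero. Groups did not overlap for 6 of the 50, 12%, against 18.7% of all genes.

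COX6B1 had 11.75, 11.59 and 11.65 in spheroid xenografts and 11.82, 11.84 and 11.73 in spheroid culture. These groups overlap, so COX6B1 lay between 11.53 and 12.12 in every group but parental culture. SDHA had 10.72, 10.75 and 10.74 in spheroid xenografts, against 10.68, 11.88 and 11.47 in spheroid culture, a difference of -0.60 (SE 0.25, limma adjusted p = 0.617). ATP5MC1 was the gene of complex V with the lowest p, at -0.32 (SE 0.16, limma adjusted p = 0.751).

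Whether the spheroid difference itself changed between culture and tumours was tested by the interaction. By limma at an adjusted p under 0.05, 0 of the 50 genes rose and 0 fell. Of all genes 0.137% were called, 0.0657% higher and 0.0708% lower. At an unadjusted p under 0.05 there were 2 of 50, against 1465 of all 19775 genes, a larger share. COX6B1 came closest in complex IV, with a spheroid difference in xenografts 0.95 above that in culture (SE 0.29, limma adjusted p = 0.364). NDUFS1 was the other, at -0.55 (SE 0.23, limma adjusted p = 0.606). The interaction is less precise than the other comparisons: the 95% interval lay within 1 log2 unit of zero for 37 of the 50.

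The remaining genes of the pathway were read from lists outside the 54. Of 24 other structural subunits, 0 rose and 1 fell in spheroid culture, the complex I accessory subunit NDUFB1 (-0.75, SE 0.17, limma adjusted p = 0.0372). In parental xenografts 0 rose and 2 fell: NDUFB1 (-0.68, SE 0.17, limma adjusted p = 0.0458) and NDUFA7, also an accessory subunit of complex I (-0.68, SE 0.16, limma adjusted p = 0.0404). That is 4.17% and 8.33% of the list, against 2.46% and 3.47% of all genes. NDUFB1 lost both calls without parental culture replicates 1 and 2 (-0.63 and -0.56), while NDUFA7 kept its own (-0.86, limma adjusted p = 0.0401). None was called in the other 3 comparisons. The medians were -0.11 and -0.18 in the comparisons named.

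Assembly factors, which build the complexes without staying in them, also held genes that fell. Of 50, 0 rose and 2 fell in spheroid culture: UQCC3, a factor of complex III (-1.15, SE 0.22, limma adjusted p = 0.0188), and NDUFAF4, a factor of complex I (-1.11, SE 0.22, limma adjusted p = 0.0211). In parental xenografts 0 rose and 4 fell, led by UQCC3 (-1.01, SE 0.22), NDUFAF4 (-0.93, SE 0.22) and COA1 (-0.86, SE 0.18). That is 4% and 8% of the list, against 2.46% and 3.47% of all genes. NDUFAF4 lost both calls without parental culture replicates 1 and 2 (-1.18 and -0.99), while UQCC3 kept both (-1.28 and -1.14) and COA1 its own (-1.12). None was called in the other 3 comparisons.

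The subunits encoded in mitochondrial DNA did not pass the test in any comparison. Of 13, 7 were represented, and all 7 were above zero in spheroid culture relative to parental culture, with a median of 0.35. Of all 19775 genes 12206 were above zero there, with a median of 0.07. In parental xenografts relative to parental culture 6 of 7 were above zero, with a median of 0.42. Of all genes 9528 were above zero in that comparison, with a median of -0.01. On parental culture arrays their values spread widely: MT-ND4, a membrane-arm subunit of complex I, had an SD of 0.58 there, against 0.04 in spheroid xenografts, 0.08 in parental xenografts and 0.08 in spheroid culture. Its difference was 0.49 (SE 0.23, limma adjusted p = 0.366) in spheroid culture and 0.57 (SE 0.23, limma adjusted p = 0.25) in parental xenografts. MT-CO1 ran from 12.63 to 14.98 in parental culture, a range that holds the 14.73 to 14.96 of spheroid culture.

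The next list holds genes tied to low oxygen, only some of which act in the turn from respiration to glycolysis. Of 11 represented, 3 rose and 0 fell in spheroid culture. They were ANKRD37 (2.13, SE 0.45), MXI1, which opposes MYC (1.09, SE 0.24), and PDK3 (0.84, SE 0.19). PDK3 is a kinase that closes the entry of pyruvate into the citric acid cycle. In parental xenografts 5 rose and 0 fell, led by ANKRD37 (3.6, SE 0.45), PDK1, a kinase of the same family (2.33, SE 0.38), and the mitophagy receptor BNIP3L (1.54, SE 0.35). The called shares of 27.3% and 45.5% stand beside 2.46% and 3.47% of all genes. With parental culture replicates 1 and 2 left out, ANKRD37, MXI1 and PDK3 lost their calls in culture (2.05, 1.16 and 1.00), and BNIP3L lost its own (1.36). ANKRD37 (3.53) and PDK1 (2.76) kept theirs in parental xenografts. Between the tumours 9 of the 11 were below zero, and in spheroid cells the median was 0.05. None was called between the tumours, between spheroid xenografts and spheroid culture or in the interaction. This list was chosen with results of these data known and is given beside the respiratory chain genes as values only.

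Around the chain, the coenzyme Q enzyme COQ6 fell in parental xenografts (-0.59, SE 0.14, limma adjusted p = 0.0378), 1 of 17 genes of electron carriers and coenzyme Q synthesis, or 5.88%, beside 3.47% of all genes. Without parental culture replicates 1 and 2 it was -0.61 (limma adjusted p = 0.135). No gene was called in any comparison among 19 of the citric acid cycle and pyruvate entry, 19 of mitochondrial biogenesis or 5 further tissue or oxygen dependent isoforms. The lowest p of each in culture belonged to the pyruvate carrier subunit MPC1 (-1.15, SE 0.28, limma adjusted p = 0.0556), to GABPB1, a subunit of the ETS factor GABP (-0.95, SE 0.24, limma adjusted p = 0.0644), and to the complex IV form COX7B2 (-0.87, SE 0.29, limma adjusted p = 0.165).

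The arrays carried the signals of the labelled line. VIM, the intermediate filament vimentin, which NCI-H1299 expresses, read between 13.55 and 14.7 on all arrays, and the epithelial cadherin CDH1 between 4.3 and 4.7. The epithelial keratin KRT8 fell in spheroid culture (-1.43, SE 0.24) and in parental xenografts (-1.77, SE 0.24), and KRT18 in parental xenografts (-1.71, SE 0.34), where COX6B1 also fell. Of the fibroblast markers 1 of 7, the collagen gene COL3A1, rose in parental xenografts (2.06, SE 0.37). With parental culture replicates 1 and 2 left out, both keratins kept their calls, and COL3A1 lost its own (2.15, limma adjusted p = 0.0766). The summed log2 signal of the 7 ran from 44.52 to 45.17 in spheroid xenografts, from 43.25 to 48.03 in parental xenografts, from 43.25 to 44.67 in spheroid culture and from 41.22 to 44.29 in parental culture. No marker of endothelium (5), macrophages (4 of 5 represented), skeletal muscle (6) or fat (5) was called in any comparison. The summed signal of the muscle markers ran from 32.7 to 33.86 in spheroid xenografts, from 31.86 to 33.2 in parental xenografts, from 33.54 to 34.32 in spheroid culture and from 31.66 to 34.12 in parental culture. The probe sets are for human genes, so these markers cannot show how much tissue of the host animal a tumour held. The part of other cells in the differences of COX6B1 and NDUFA1 was not tested.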

How the data were processed

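Total RNA (2 µg a sample) was labelled with biotin and hybridised, per the labels' protocols. The deposited values are log2 expression values of 54675 probe sets on 12 arrays. Per the submitters' processing notes, the authors used RMA and affy. The sources used here do not state versions, parameters or whether the arrays were normalised together. That the values are log2 follows from their range. The groups follow the sample titles.

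Probe sets with 1 gene symbol (41091) were kept, those with several (1801) were not, and symbols were updated by gene number for 41037 through RefSeq's GRCh38.p14 gene table. Where a gene had several probe sets, that of the highest mean stood for it, with no filter on dim probe sets. R 4.3.3 and limma 3.58.1 fitted 1 mean per group to the 12 arrays (8 residual degrees of freedom), moderated by eBayes, two-sided, with Benjamini-Hochberg adjustment over 19775 genes and calls at an adjusted p under 0.05. The fit takes the spread of a gene as equal in the 4 groups. Parental culture varied more than the others, so SEs, intervals and p-values against it may be too small. The code was tested on simulated data. The median SE was 0.20 for a difference and 0.28 for the interaction, and the number of arrays limits the precision. An exact permutation test of 3 against 3 arrays cannot go below p = 0.1.

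Values by array are given for every called member, for the member with the lowest p in each complex and for the isoform pairs COX4I1 with COX4I2 and COX7A1 with COX7A2. Of each other list the text names at most 3 called genes a comparison, or the gene with the lowest p. The members, the lists and the tests were chosen with earlier results of these data known. NDUFA4 was counted in complex IV.

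Same-numbered replicates deviated together in every pair between spheroid and parental xenografts (r from 0.182 to 0.482) and between spheroid xenografts and spheroid culture (r from 0.333 to 0.431), a pairing taken from the data alone. In the comparisons with parental culture the number 1 pairs correlated (r = 0.333 with spheroid culture and 0.192 with parental xenografts). The other pairs of these groups ran from -0.454 to -0.236, so these comparisons were not taken as paired. Spheroid xenografts were not compared with parental culture, where r was 0.262, -0.395 and -0.565. The alternatives were quantile normalisation again, median centring, cyclic loess, a filter on dim genes, 2 other ways to choose probe sets, a fit to only the groups compared, a replicate block, array spread as a covariate, eBayes with trend and robust, and each array left out in turn. Leaving out parental culture replicates 1 and 2, or the 3 arrays with the widest gap between 3′ and 5′ actin signals, was chosen after seeing the data. Those 3 arrays were parental culture replicate 1, spheroid culture replicate 1 and spheroid xenograft replicate 3.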

Additional observations from a re-analysis of the deposited data

How the results depend on the processing

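In culture, where 1 respiratory chain gene was called, the count was 0 in a fit to only the arrays compared, 3 with array spread as a covariate (COX6B1, SDHA and COX7B), 2 without parental culture replicates 1 and 2, 2 without the 3 arrays with the widest actin gap, and 0 to 2 when single arrays were left out. Between parental xenografts and parental culture, where 2 were called, it was 4 after quantile normalisation, 1 after median centring, 6 after cyclic loess, 0 in a fit to only the arrays compared, 4 with array spread as a covariate, 1 with trend and robust eBayes, and 0 to 4 when single arrays were left out. The cause of these shifts was not tested, other than fewer arrays in some of the fits. In the other 3 comparisons the count was 0 under all the alternatives run. Over the alternatives the median of the 50 genes ran from -0.30 to 0.07 in culture, from -0.06 to 0.02 between tumours, from -0.29 to 0.04 in parental cells, from -0.14 to 0.03 in spheroid cells and from -0.09 to 0.26 for the interaction, so its sign was not settled in any of the 5. Without parental culture replicates 1 and 2, 2 of 7 calls in the other lists and markers held in culture and 9 of 15 in parental cells, and each kept its direction. COX6B1 kept its direction in all 24 alternatives and its call in 20, both in culture (adjusted p from 0.00276 to 0.128) and in parental cells (adjusted p from 0.00174 to 0.165). SDHA was called in culture in 3 of 23 alternatives. With the replicate block the counts of calls were 1 in culture, 0 between tumours, 2 in parental cells, 0 in spheroid cells and 0 for the interaction, and it changed no call. With 3 arrays a group, differences of under about 1 log2 unit in the interaction were often not detectable. Some larger ones also missed the threshold, such as ANKRD37 (-2.55, limma adjusted p = 0.205) and KRT8 (1.71, limma adjusted p = 0.0837).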
